A study of Homo sapiens with 30 samples.

Results

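The nucleolar ribosome biogenesis genes examined here are 60 genes, chosen by name, whose products process pre-rRNA and assemble the ribosomal subunits. Of these, 59 were found among the 20367 gene symbols of the PRO-Seq table, and PPAN was analysed by ATAC-Seq alone. They were followed in G401, a malignant rhabdoid tumor (MRT) cell line that lacks SNF5, the SWI/SNF subunit encoded by SMARCB1. The cells were transduced with lentivirus carrying a TET-inducible EGFP, OMOMYC or SNF5 construct, selected with G418, and treated with 1 µg/ml doxycycline for 24 h, so that the EGFP control also received virus, G418 and doxycycline. OMOMYC is a dominant-negative form of MYC. Active RNA polymerase was mapped by PRO-Seq and open chromatin by ATAC-Seq, each in 3 replicates per construct, and MYC was mapped by ChIP-Seq in 2 replicates per construct.

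Ribosomes are built in the nucleolus, where RNA polymerase I transcribes the pre-rRNA. Small nucleolar ribonucleoproteins (snoRNPs) guide its chemical modification, with box C/D particles placing 2′-O-methyl groups and box H/ACA particles making pseudouridine. The small subunit processome then folds and cuts the 18S part, while a separate set of factors assembles the 60S subunit. Most genes of this program are textbook targets of MYC, which binds DNA with MAX at the E-box CACGTG.

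The SMARCB1 gene checked the SNF5 labels of the PRO-Seq samples, and could not tell EGFP from OMOMYC. Its gene body held 1 to 6 reads in each EGFP and OMOMYC sample and 2870 to 4467 reads in each SNF5 sample. Per sample, 28444943 to 46957634 reads fell in gene bodies and 518900 to 3386528 in promoter-proximal windows of 50 bases. The promoter-proximal share was 1.46 to 1.97% of both in the samples numbered 1, 8.63 to 10.28% in those numbered 2 and 4.21 to 5.13% in those numbered 3. The replicate number was a term in every model, so the constructs were compared within numbers. DKC1, the box H/ACA pseudouridine synthase, and EMG1, an 18S rRNA methyltransferase, were listed at 0 in all 9 samples and could not be tested. BOP1 had 0 promoter-proximal reads and 150 gene body reads in all, so 57 members passed the minimum mean of 10 gene body reads and 56 the same minimum in the promoter-proximal window.

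MYC peaks lay at most of these starts in control cells, and the E-box was found under many of them. The 30-base windows below, in hg19 on the strand of the gene and with CACGTG in capitals, are from the 4 members with the highest replicate 1 enrichment among those with the motif within 100 bases of the summit in both EGFP samples. NCL (chr2:232328551-232328580, minus strand) holds it in an intron and WDR43 (chr2:29117524-29117553, plus strand) in its 5′ UTR. NPM1 (chr5:170815566-170815595, plus strand) holds it in an intron, beside a second copy left in lower case. In NAT10 (chr11:34127149-34127178, plus strand) it lies upstream of the canonical GENCODE transcript and 53 bases past the start used in the PRO-Seq table.
NCL: ctggcaagccgaCACGTGgtgggccccgga
WDR43: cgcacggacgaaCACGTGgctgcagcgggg
NPM1: aaccgctgggagCACGTGgttgccacgtgg
NAT10: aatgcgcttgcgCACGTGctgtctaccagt

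FBL is shown because its gene body reads and its pausing index, both described below, passed with both constructs. This choice was made after its values were seen. Its motif lies in the 5′ UTR (chr19:40336996-40337025, minus strand). NOLC1 had the strongest replicate 1 peak among members with no CACGTG within 100 bases of either summit. Its window is centred on the replicate 2 summit, marked by the capital, in a coding exon (chr10:103912260-103912289, plus strand).
FBL: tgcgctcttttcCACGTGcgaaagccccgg
NOLC1: caataagttcgccaaAgcgacaggagctgt

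The E-box was common at these genes whether or not MYC was considered. CACGTG, which reads the same on both strands, occurred within 100 bases of the start in 18 of 59 members (30.5%) and in 1209 of all 20367 genes (5.94%). Among members with a peak in both EGFP samples, 20 of 35 (57.1%) had it within 100 bases of the replicate 2 summit, against 443 of 878 genes with such peaks in all (50.5%). It was near both summits in 17 members (48.6%) and in 43.4% of the 878 genes, and 11 of the 35 members had it near neither summit. The motif was thus about as frequent under the members' peaks as under other promoter peaks.

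The question for MYC ChIP-Seq was at how many of these starts a peak was called with each construct. A peak with its summit within 1 kb of the start was present at 35 of 59 members in EGFP replicate 1 (59.3%), against 4.35% of all genes. In EGFP replicate 2 it was present at 55 of 59 (93.2%), against 23.1% of all genes. The replicate 2 list was longer, with 5396 peaks against 940, and every one of the 35 members with a replicate 1 peak also had one in replicate 2. With SNF5, 7 members (11.9%) had a peak in replicate 1, against 0.614% of all genes, and 0 members had one in replicate 2, whose list held 27 peaks. The OMOMYC lists held 1 placeholder line each and no peak, so 0 members had a peak there.

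Fold enrichment of the peak over background, as MACS2 gave it, set the order of the members. WDR43, a subunit of the small subunit processome, had the highest value in EGFP replicate 2 (17.85) and the second highest in replicate 1 (11.71), and 7.37 in SNF5 replicate 1. NCL, encoding nucleolin, an abundant RNA-binding protein of the nucleolus, had 13.58 and 12.85 in the EGFP samples and 6.37 with SNF5. NPM1, encoding nucleophosmin, a scaffold and histone chaperone of the nucleolus, had 9.59 and 11.59 with EGFP and 8.84 with SNF5. NOLC1, a phosphoprotein that binds snoRNPs, had 9.17 and 12.15 with EGFP and 7.96 with SNF5.

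The other members with a SNF5 peak had lower EGFP values than these. NAT10, an rRNA acetyltransferase, had 8.96 and 10.89 with EGFP and 8.84 with SNF5. PNO1, a late 40S assembly factor, had 7.89 and 7.92 with EGFP and 7.74 with SNF5. GNL3, encoding the nucleolar GTPase nucleostemin, had 5.48 and 11.55 with EGFP and 4.58 with SNF5. The median EGFP replicate 1 enrichment was 9.17 for these 7 members, whose SNF5 peaks all came from replicate 1, and 5.55 for the 28 with no SNF5 peak. Apart from GNL3 the 7 lay above the members' median of 6.18 in EGFP replicate 1. Of the 35 members with a peak in both EGFP samples 7 kept one with SNF5, against 14.5% of all genes with such peaks. Values from separate lists share no common scale, so the fall within a gene has no test here.

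By the start used in the PRO-Seq table, only 4 members had no MYC peak within 1 kb in any list. With every GENCODE start of a gene, 56 members had a peak in EGFP replicate 2 against 55 here. At least 1 of the 4 thus had a peak at another start. These were PES1 and NOC2L, of the large subunit pathway, and TBL3 and DDX52, of the small subunit pathway. DKC1 and EMG1, listed at 0 in PRO-Seq, each had a MYC peak in both EGFP samples, with enrichments of 4.94 and 8.69 at DKC1 and of 5.37 and 6.03 at EMG1. The plot of peak enrichment by gene shows these values for all 59 members.

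**Figure D1:**
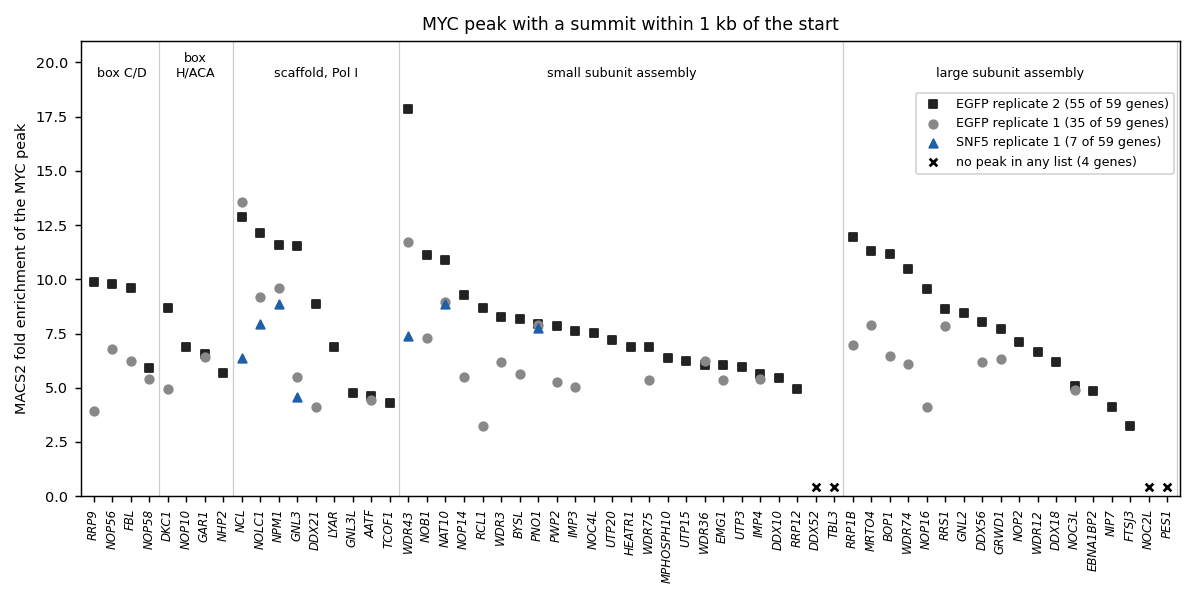
MYC peaks at the 59 members, ordered by role and by enrichment in EGFP replicate 2. The vertical axis is the fold enrichment of the strongest peak with a summit within 1 kb of the start used in the PRO-Seq table. Squares are EGFP replicate 2, circles EGFP replicate 1, triangles SNF5 replicate 1 and crosses genes with no such peak. Peaks appear at 55, 35 and 7 members in that order, and the SNF5 triangles lie in the scaffold and small subunit groups.

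Transcription across gene bodies fell at most members when SNF5 was induced. Of 57 members tested, 35 fell, 0 rose and 22 did not pass an adjusted p of 0.05 in edgeR's quasi-likelihood test. Among all 15060 genes tested, 17.1% fell and 17.3% rose. The median log2 fold change of the members was -0.29, a fall of 18.2%, against -0.03 for all genes, and the members that passed fell by 14.6% to 35.6%. Gene body reads were lower with SNF5 than with EGFP in 3 of 3 same-numbered pairs at 50 of 57 members, against 32.1% of all genes.

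With OMOMYC the direction was the same and fewer members passed. Of 57 members, 20 fell, 0 rose and 37 did not pass, where 4.52% of all genes fell and 3.98% rose. The median log2 fold change was -0.26, against 0.00 for all genes, and the members that passed fell by 14.1% to 36.6%. Reads were lower than with EGFP in 3 of 3 pairs at 40 members, against 27.9% of all genes. Both comparisons use the same EGFP samples, so their values are given side by side and not as independent evidence of each other.

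These counts depended on the replicates. Without the replicate number in the model 0 members passed with either construct. With SNF5 and OMOMYC 17 and 14 members then had an unadjusted p under 0.05, against 2231 and 925 of all 15060 genes. With SNF5 10 members fell without the samples numbered 1 (17.5%, against 3.19% of all genes), 3 without those numbered 2 (5.26%, against 2.12%) and 44 without those numbered 3 (77.2%, against 32.3%). With OMOMYC 0 members passed without the samples numbered 1 or those numbered 2, where 2 genes in all passed each time. Without those numbered 3, 48 members passed (84.2%, against 45.2% of all genes), of which 4 rose.

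**Figure D2:**
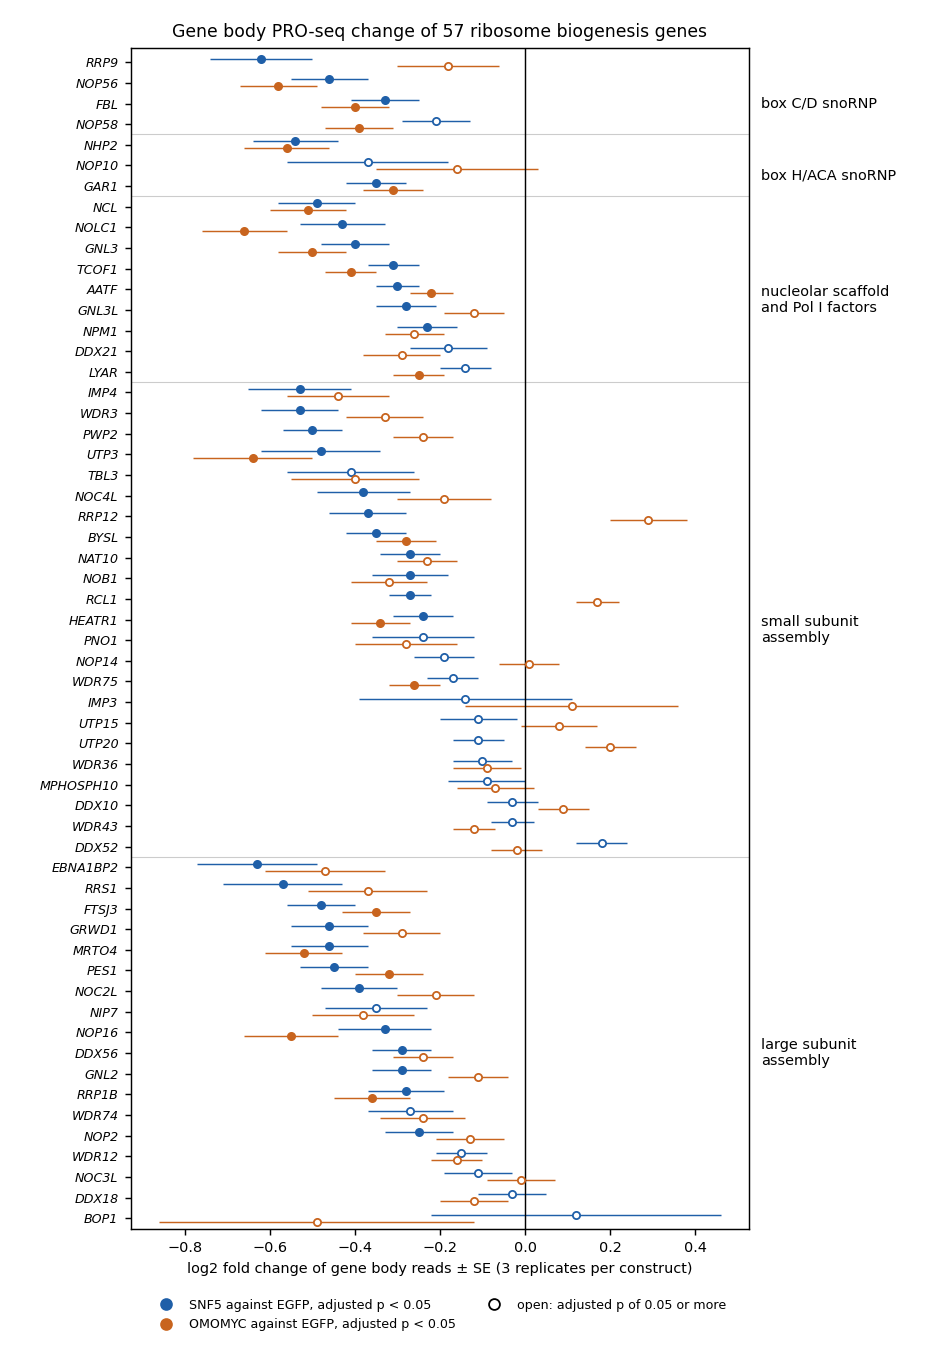
Log2 fold change of gene body reads against EGFP for the 57 members tested, with its standard error, grouped by role. Blue points are SNF5, orange points OMOMYC, and filled points passed an adjusted p of 0.05. With SNF5 55 of the 57 points lie below 0 and with OMOMYC 50 do, the small subunit group holding 7 of the OMOMYC points above 0.

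The box C/D snoRNP genes fell with both constructs. Of 4 members, 3 passed with SNF5 and 3 with OMOMYC, with medians of -0.40 and -0.39. NOP56, a core scaffold of the particle, had 5333, 5295 and 5523 scaled gene body reads in EGFP replicates 1, 2 and 3, 3500, 3013 and 4398 with OMOMYC, and 4131, 3321 and 4360 with SNF5. Scaled reads are counts divided by the size of the sample, so that samples can be compared within a gene. All 3 EGFP samples were higher than every sample of the other constructs. The log2 fold change was -0.46 ± 0.09 (SE, adjusted p = 0.0047) with SNF5 and -0.58 ± 0.09 (adjusted p = 0.017) with OMOMYC.

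FBL, encoding fibrillarin, the 2′-O-methyltransferase of the particle, had 1555, 1321 and 1538 scaled reads with EGFP, 1166, 900.0 and 1309 with OMOMYC, and 1274, 974.8 and 1279 with SNF5. Every sample with OMOMYC or SNF5 was below every EGFP sample. FBL fell by 0.33 on the log2 scale with SNF5 (adjusted p = 0.011) and by 0.40 with OMOMYC (adjusted p = 0.026). NOP58, the partner of NOP56 in the particle, had 8984, 8419 and 9318 scaled reads with EGFP, 6532, 5786 and 8310 with OMOMYC and 8101, 6895 and 8081 with SNF5. The groups did not overlap, yet the SNF5 change of -0.21 did not pass (adjusted p = 0.059), while the OMOMYC change of -0.39 did (adjusted p = 0.027).

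RRP9, which binds the U3 snoRNA of the small subunit processome, separated the constructs. It had 916.4, 705.0 and 929.6 scaled reads with EGFP, 742.4, 543.1 and 1008 with OMOMYC and 620.0, 441.5 and 600.4 with SNF5. The OMOMYC samples overlapped the EGFP samples and the SNF5 samples did not. The log2 fold change was -0.62 ± 0.12 with SNF5 (adjusted p = 0.0043) and -0.18 ± 0.12 with OMOMYC (adjusted p = 0.35).

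Of the box H/ACA genes that could be tested, NHP2 and GAR1 fell with both constructs and NOP10 did not pass with either. NHP2, a core protein of the particle, had 1136, 1210 and 1019 scaled reads with EGFP, 780.4, 673.4 and 826.7 with OMOMYC and 804.7, 748.3 and 762.7 with SNF5. It fell by 0.54 with SNF5 (adjusted p = 0.0047) and by 0.56 with OMOMYC (adjusted p = 0.026), with every sample of each below every EGFP sample. GAR1, another core protein, had 1862, 1646 and 1696 scaled reads with EGFP, 1514, 1315 and 1383 with OMOMYC and 1579, 1265 and 1244 with SNF5, and fell by 0.35 with SNF5 (adjusted p = 0.0047) and by 0.31 with OMOMYC (adjusted p = 0.033).

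NOP10, the smallest protein of the particle, has a gene body of 446 bases in this table and low counts. It had 99.9, 149.8 and 118.4 scaled reads with EGFP, 78.1, 148.1 and 109.6 with OMOMYC and 73.3, 141.9 and 77.4 with SNF5. Each was below EGFP within its number, but the spread between numbers was as large as the difference, and the changes of -0.37 ± 0.19 and -0.16 ± 0.19 did not pass (adjusted p = 0.16 with SNF5 and 0.62 with OMOMYC).

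Among the 9 nucleolar scaffold and RNA polymerase I genes, 7 fell with SNF5 and 6 with OMOMYC, with medians of -0.30 and -0.29. NCL had 7961, 10707 and 9202 scaled reads with EGFP, 5568, 6310 and 7654 with OMOMYC and 6276, 6803 and 6665 with SNF5. Both constructs lay below all EGFP samples. NCL fell by 0.49 with SNF5 (adjusted p = 0.0043) and by 0.51 with OMOMYC (adjusted p = 0.025).

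NPM1 was among the most read members, with 15502, 13137 and 15701 scaled reads with EGFP, 12310, 10124 and 14680 with OMOMYC and 13492, 11507 and 12808 with SNF5. Its groups overlapped across numbers, and each construct was below EGFP within every number. The change of -0.23 ± 0.07 with SNF5 passed (adjusted p = 0.040) and the change of -0.26 ± 0.07 with OMOMYC did not (adjusted p = 0.056). NPM1 has many processed pseudogenes, and how reads matching several copies were assigned, beyond a minimum mapping quality, is not given in the sources used here.

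NOLC1 and TCOF1, encoding treacle, which serves RNA polymerase I transcription, had the lowest adjusted p values with OMOMYC beside NOP56. NOLC1 had 2912, 3163 and 3328 scaled reads with EGFP, 1750, 1814 and 2424 with OMOMYC and 2340, 2361 and 2266 with SNF5. It fell by 0.66 with OMOMYC (adjusted p = 0.015), the largest OMOMYC fall among the members that passed, and by 0.43 with SNF5 (adjusted p = 0.0094). TCOF1 had 7835, 5444 and 6959 scaled reads with EGFP, 5383, 4082 and 5779 with OMOMYC and 6146, 4481 and 5624 with SNF5. It fell by 0.41 with OMOMYC (adjusted p = 0.017) and by 0.31 with SNF5 (adjusted p = 0.0057), and was lower in 3 of 3 pairs with each although the groups overlapped across numbers. GNL3 fell by 0.40 and 0.50 with SNF5 and OMOMYC, and AATF, which works in early small subunit processing, by 0.30 and 0.22.

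The small subunit assembly genes were the most mixed group. Of 23 tested, 11 fell with SNF5 and 4 with OMOMYC, with medians of -0.24 and -0.19. PWP2, a processome subunit, had the lowest adjusted p of all members with SNF5. It had 2220, 1819 and 2459 scaled reads with EGFP, 1831, 1468 and 2230 with OMOMYC and 1605, 1349 and 1631 with SNF5. Only the SNF5 samples lay below all EGFP samples. The change was -0.50 ± 0.07 with SNF5 (adjusted p = 0.0015) and -0.24 ± 0.07 with OMOMYC (adjusted p = 0.071).

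WDR3, another processome subunit, had 3097, 3041 and 3661 scaled reads with EGFP, 2471, 2043 and 3356 with OMOMYC and 2282, 2028 and 2472 with SNF5. Only the SNF5 samples lay below all EGFP samples. WDR3 fell by 0.53 with SNF5 (adjusted p = 0.0027), and its change of -0.33 with OMOMYC did not pass at an adjusted p of 0.050. UTP3, HEATR1 and BYSL passed with both constructs, with changes of -0.48 and -0.64 for UTP3, -0.24 and -0.34 for HEATR1 and -0.35 and -0.28 for BYSL. WDR43, which had the strongest MYC peak in EGFP replicate 2, changed by -0.03 ± 0.05 with SNF5 (adjusted p = 0.66) and by -0.12 ± 0.05 with OMOMYC (adjusted p = 0.17). DDX10, UTP15 and MPHOSPH10, named after their values were seen, had changes between -0.11 and 0.09 that did not pass with either construct.

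Of the 18 large subunit assembly genes tested, 12 fell with SNF5 and 5 with OMOMYC, both with a median of -0.31. FTSJ3, an rRNA 2′-O-methyltransferase of the pathway, had 1219, 1012 and 1218 scaled reads with EGFP, 912.8, 749.4 and 1051 with OMOMYC and 853.0, 675.2 and 962.9 with SNF5, and fell by 0.48 with SNF5 (adjusted p = 0.0026) and by 0.35 with OMOMYC (adjusted p = 0.035). The SNF5 samples lay below all EGFP samples and the OMOMYC samples overlapped them. EBNA1BP2, a 60S assembly factor, had the largest SNF5 fall of all members that passed. It had 1721, 1603 and 1899 scaled reads with EGFP, 1132, 1084 and 1569 with OMOMYC and 1294, 1092 and 964.6 with SNF5. Neither construct overlapped EGFP, and the changes were -0.63 ± 0.14 (adjusted p = 0.0097) with SNF5 and -0.47 ± 0.14 (adjusted p = 0.071) with OMOMYC.

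PES1, BOP1 and WDR12 form a complex needed to process the 32S pre-rRNA. PES1 had 2900, 3287 and 3613 scaled reads with EGFP, 2258, 2310 and 3349 with OMOMYC and 2166, 2166 and 2887 with SNF5, and fell by 0.45 with SNF5 (adjusted p = 0.0030) and by 0.32 with OMOMYC (adjusted p = 0.039). Again the SNF5 samples lay below all EGFP samples and OMOMYC overlapped. WDR12 had 2552, 2609 and 2559 scaled reads with EGFP, 2244, 2191 and 2473 with OMOMYC and 2250, 2319 and 2410 with SNF5. The WDR12 groups did not overlap, yet its changes of -0.15 with SNF5 (adjusted p = 0.088) and -0.16 with OMOMYC (adjusted p = 0.12) did not pass. BOP1 had 10.1 to 25 scaled reads per sample and its changes of 0.12 ± 0.34 and -0.49 ± 0.37 have standard errors too wide to place it. Members of the complex thus ran from a called fall to a gene that could hardly be measured.

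**Figure D3:**
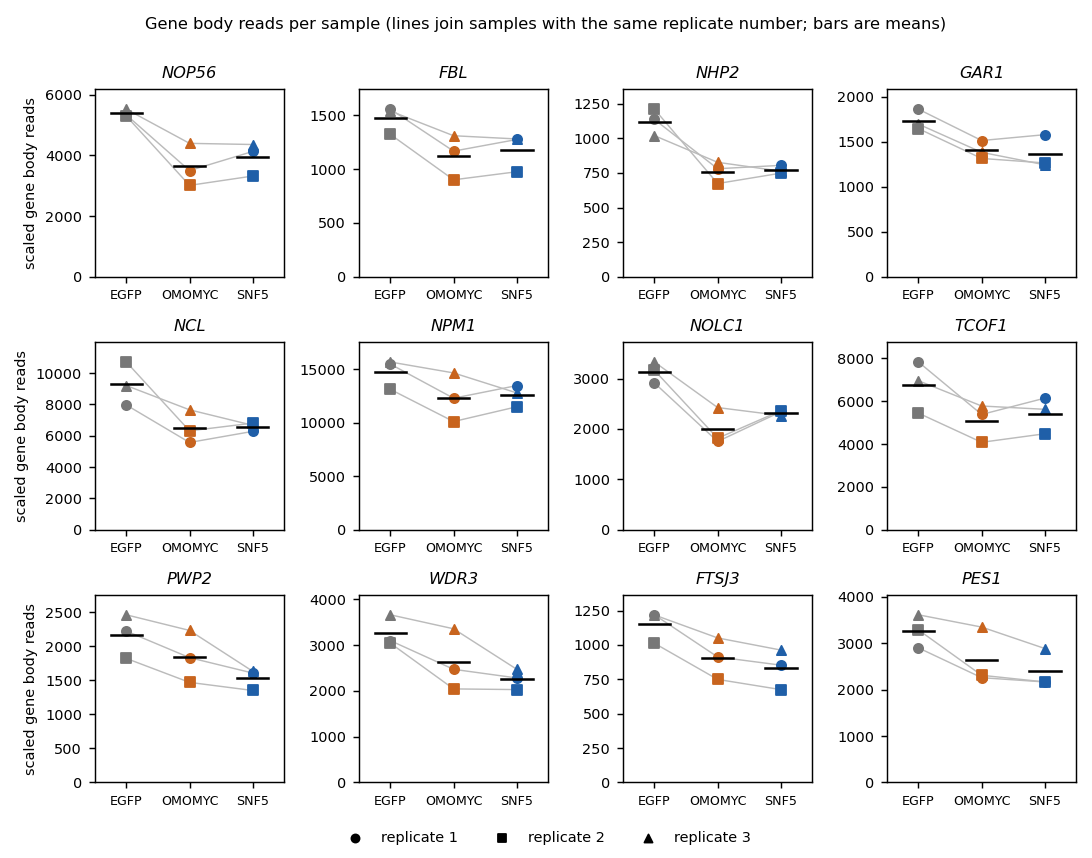
Scaled gene body reads in each of the 9 samples for 12 of the members described above, among them the 3 of lowest adjusted p with each construct. Each panel is a gene, the symbols mark the replicate number, grey lines join samples of the same number and black bars are means over 3 samples. In every panel each SNF5 and OMOMYC symbol lies below the EGFP symbol of its number, for example 3500 and 4131 against 5333 for NOP56 in replicate 1. The panels were partly picked by their falls and do not stand for all members. RRP12, RCL1, UTP20 and DDX10, not drawn, were above EGFP with OMOMYC in each number.

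The members were well transcribed in control cells. Per length, the median EGFP level was 146 scaled reads per kb of gene body over the 57 members, against 46.0 over all 15060 genes. RRS1 (1190 ± 393, SD, n = 3), NOP56 (1110 ± 25) and NCL (1060 ± 157) had the highest levels per kb and lay within the spread of RRS1, followed by NPM1 (666 ± 64.3). RRP12 (48.1 per kb), UTP20 (47.7) and TBL3 (45.5) were the lowest apart from BOP1 (0.624).

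A direct comparison asked where SNF5 and OMOMYC differed. Of 57 members, 5 (8.77%) were lower with SNF5 than with OMOMYC, against 7.56% of all genes, and 0 were higher, against 11.4%. The share that was lower was thus near that of all genes. Named here because they are so few, the 5 were RRP9, PWP2, RRP12, RCL1 and UTP20. RRP12, a nuclear export factor for both subunits, differed most. It had 2218, 1559 and 2524 scaled reads with EGFP, 2726, 1957 and 3027 with OMOMYC and 1995, 1244 and 1633 with SNF5. In each number OMOMYC was above EGFP and SNF5 below it, and the SNF5 to OMOMYC difference was -0.66 ± 0.09 (adjusted p = 0.0015).

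RCL1, an 18S processing factor, and UTP20, a large processome scaffold, were likewise highest with OMOMYC in each number. SNF5 was lowest in each number for RCL1 and in those numbered 2 and 3 for UTP20. RCL1 had 4903, 4177 and 6009 scaled reads with EGFP, 5570, 4685 and 6779 with OMOMYC and 4123, 3499 and 4820 with SNF5, a difference of -0.45 ± 0.05 (adjusted p = 0.00051). UTP20 had 5179, 5081 and 4829 scaled reads with EGFP, 6046, 5591 and 5706 with OMOMYC and 5268, 4648 and 4121 with SNF5, a difference of -0.31 ± 0.06 (adjusted p = 0.011). Against EGFP alone, the OMOMYC values of these genes did not pass (0.29 for RRP12, 0.17 for RCL1 and 0.20 for UTP20, adjusted p = 0.072, 0.059 and 0.082). The count of 5 was 0 without the replicate number in the model. An unadjusted p under 0.05 was then found at 3 members, against 1426 of all 15060 genes. The count was 2 without the samples numbered 1 or those numbered 2. Without those numbered 3 it was 23 (40.4%), of which 15 were higher with SNF5, while 42.0% of all genes passed.

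Gene body changes were read beside the MYC peaks. With SNF5, 22 of 33 members with a peak in both EGFP samples fell (66.7%), as did 42.5% of the 832 genes tested with such peaks. Among members with a peak in EGFP replicate 2 alone 11 of 20 fell (55.0%), against 27.2% of 3677 genes, and among those with none 2 of 4, against 11.5%. With OMOMYC the shares were 13 of 33 (39.4%) against 19.4%, 6 of 20 (30.0%) against 7.67% and 1 of 4 against 2.24%. The share that fell was higher among the members in each class. These shares are descriptions and carry no test. The classes rest on 1 start per gene, that of the PRO-Seq table. With every GENCODE start 56 members had a replicate 2 peak against 55, so the class with none holds at least 1 member with a peak elsewhere.

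No promoter-proximal count of a member passed against EGFP. With SNF5 0 of 56 passed in edgeR, where 4.3% of all 11241 genes changed. An unadjusted p under 0.05 was found at 8 members and at 2271 of the 11241 genes. With OMOMYC 0 of 56 passed, where 1.75% of all genes changed. There 2 members and 1736 of the 11241 genes had an unadjusted p under 0.05. DESeq2 also called 0 with each. Log2 fold changes of single members ran from -0.72 to 0.77 with SNF5 and from -0.50 to 0.53 with OMOMYC. Reads were lower than with EGFP in 3 of 3 pairs at 21 members with SNF5 (37.5%), against 18.8% of all genes, and at 8 with OMOMYC (14.3%), against 8.58%. The members' medians were -0.16 and 0.06, against -0.05 and 0.12 for all genes. When the samples were scaled to the promoter-proximal reads themselves the OMOMYC median of all genes moved from 0.123 to -0.031 and that of the members to -0.098, so that direction depends on the scaling. With that scaling 4 members were lower with SNF5 (7.14%, against 5.22% of all genes). Without the samples numbered 1, 3 members were lower with SNF5 (5.36%, as were 5.36% of all genes), and without those numbered 3, 1 was (1.79% against 1.62%).

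WDR74, a large subunit factor, was the 1 member that differed between SNF5 and OMOMYC at the promoter, higher with SNF5, against 0.48% of all genes. It had 284.0, 474.9 and 120.3 scaled promoter-proximal reads with SNF5, 118.3, 240.5 and 84.6 with OMOMYC and 143.3, 475.9 and 93.3 with EGFP. The SNF5 to OMOMYC difference was 0.93 ± 0.22 (adjusted p = 0.030), larger in the samples numbered 1 than in those numbered 3. It did not pass without the samples numbered 1, without those numbered 2 or without the replicate number in the model. NPM1 showed how wide the numbers were, with 604.8, 11659 and 7102 scaled promoter-proximal reads with EGFP, 784.7, 16213 and 6917 with OMOMYC and 839.1, 14636 and 5517 with SNF5.

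The pausing index is the density of reads in the promoter-proximal window over that in the gene body. It rises when gene body reads fall, so it is not independent of the gene body changes above. The members' median promoter-proximal and gene body changes were -0.16 and -0.29 with SNF5 and 0.06 and -0.26 with OMOMYC. With SNF5, 2 of 56 members rose, RRP1B and FBL, against 2.02% of all genes. With OMOMYC, 3 rose, FBL, EBNA1BP2 and NHP2, against 2.18%. The members' median log2 change was 0.11 with SNF5 and 0.29 with OMOMYC, and that of all genes 0.01 and 0.14. The index was higher in 3 of 3 pairs at 19 members with SNF5, against 20.2% of all genes, and at 22 with OMOMYC, against 25.9%. As shares of the 56 members these were 33.9% and 39.3% for the pairs and 3.57% and 5.36% for the calls.

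FBL had a pausing index of 8.57, 60.2 and 23.6 with EGFP, 13.7, 124 and 47.2 with OMOMYC and 9.90, 135 and 42.1 with SNF5. It was above EGFP in every pair, by 0.93 ± 0.23 with OMOMYC (adjusted p = 0.018) and 0.79 ± 0.23 with SNF5 (adjusted p = 0.037). NHP2 had 1.87, 13.5 and 9.74 with EGFP, 3.60, 31.8 and 13.2 with OMOMYC and 2.98, 25.3 and 12 with SNF5, and rose by 0.86 with OMOMYC (adjusted p = 0.045). EBNA1BP2 had 1.77, 16.3 and 11.9 with EGFP, 5.67, 30.8 and 16.5 with OMOMYC and 3.93, 23.9 and 17.5 with SNF5, and rose by 0.90 with OMOMYC (adjusted p = 0.034).

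RRP1B, a nucleolar protein of the large subunit pathway, had 2.26, 4.16 and 2.54 with EGFP, 3.98, 7.19 and 4.79 with OMOMYC and 2.5, 8.21 and 8.44 with SNF5. It rose by 1.07 with SNF5 (adjusted p = 0.034) on 15.2 to 47.9 scaled promoter-proximal reads per sample, and its SNF5 value in replicate 1 was near the control. WDR74 was the 1 member higher with SNF5 than with OMOMYC, against 0.125% of all genes, by 0.95 ± 0.23 (adjusted p = 0.019). No pausing index call of a member against EGFP was kept by DESeq2 or by the model without the replicate number, which gave 0 with SNF5 and 0 with OMOMYC. At an unadjusted p under 0.05, DESeq2 gave 9 members with SNF5 and 15 with OMOMYC, against 1368 and 1161 of all 11171 genes. The model without the number gave 0 and 0 members, against 9 and 1 of all genes. Leaving out the samples numbered 1, 2 and 3 in turn gave 2, 0 and 0 calls with SNF5, 1, 0 and 11 with OMOMYC, and 0, 0 and 1 between them. The 11 were 19.6% of the members, against 8.44% of all genes that rose there.

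**Figure D4:**
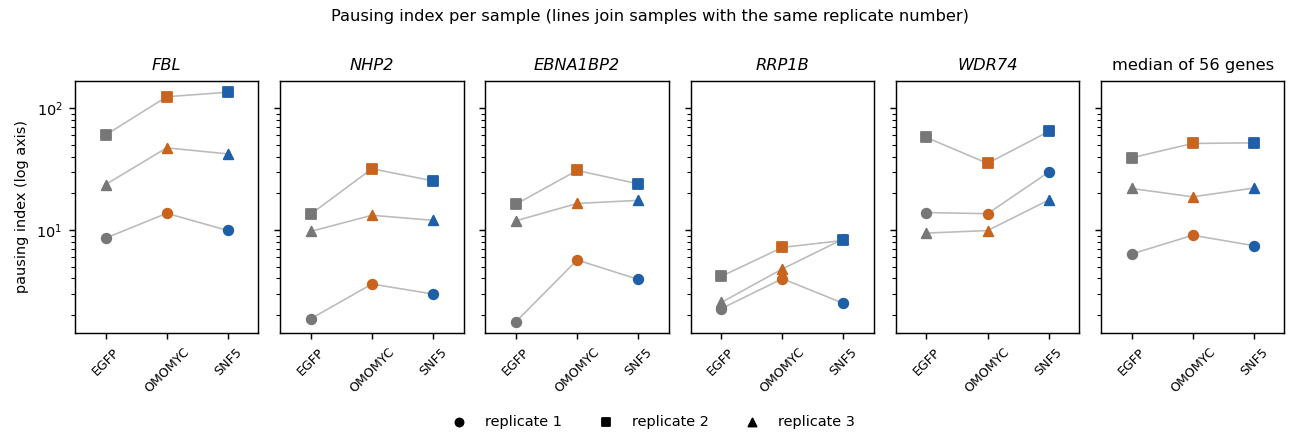
Pausing index in each of the 9 samples, on a log axis, for the 5 members that passed in any comparison and for the median of the 56 members. Symbols mark the replicate number and grey lines join samples of the same number. The medians with EGFP are 6.35, 39.1 and 21.9 in replicates 1, 2 and 3, so the numbers differ more than the constructs do.

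Other ribosome biogenesis genes outside the 60 were described in the same way. In a list of 76 further genes of the pathway found in the table, 73 were tested in gene bodies, of which 37 fell and 0 rose with SNF5, where 17.1% of all genes fell, and 18 fell and 0 rose with OMOMYC, where 4.52% did. The other 36 and 55 did not pass, and the medians were -0.24 and -0.19. With SNF5 the lowest adjusted p values were those of PELP1 (-0.39, adjusted p = 0.0019), RRP1 (-0.61, adjusted p = 0.0022) and, level with RRP7A, DDX31 (-0.36, adjusted p = 0.0032). With OMOMYC they were those of TSR1 (-0.56, adjusted p = 0.016) and, among several at 0.026, RRP7A (-0.34) and PDCD11 (-0.42). Between SNF5 and OMOMYC, 6 of the 73 were lower and 3 higher with SNF5, against 7.56% and 11.4% of all genes, led by DHX37 (-0.64, adjusted p = 0.00069).

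Chromatin at the members' starts was open in most samples. RefSeq starts in GRCh38 were matched for 50 of the 60 members, PPAN among them, and an ATAC-Seq peak lay within 1 kb in 40, 43 and 30 of them in EGFP replicates 1, 2 and 3. The counts were 30, 47 and 37 with OMOMYC and 47, 48 and 40 with SNF5, while all 13295 genes matched gave 33.4 to 57.2%. Constructs overlapped, 26 members had a peak in all 9 samples, among them NCL, NPM1, WDR43 and NHP2, and PWP2 and WDR74 had one in none. FBL had a peak in EGFP replicate 2, OMOMYC replicate 2 and SNF5 replicates 1 and 2. By the rule of a peak in 3 of 3 samples against 0 of 3, 0 members were gained or lost with either construct. Shares of all genes were not computed for this rule or for the 26 members, so these counts describe the members alone.

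The lists held 7260 to 33596 peaks, with the longest among the SNF5 samples. When the same number of top peaks, 7260, was taken from each sample, the members with a peak numbered 26, 25 and 26 with EGFP, 30, 29 and 26 with OMOMYC and 23, 28 and 25 with SNF5. Of all 13295 genes matched, 27.4 to 33.4% then had a peak. The higher SNF5 counts were thus not seen at equal list length.

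**Figure D5:**
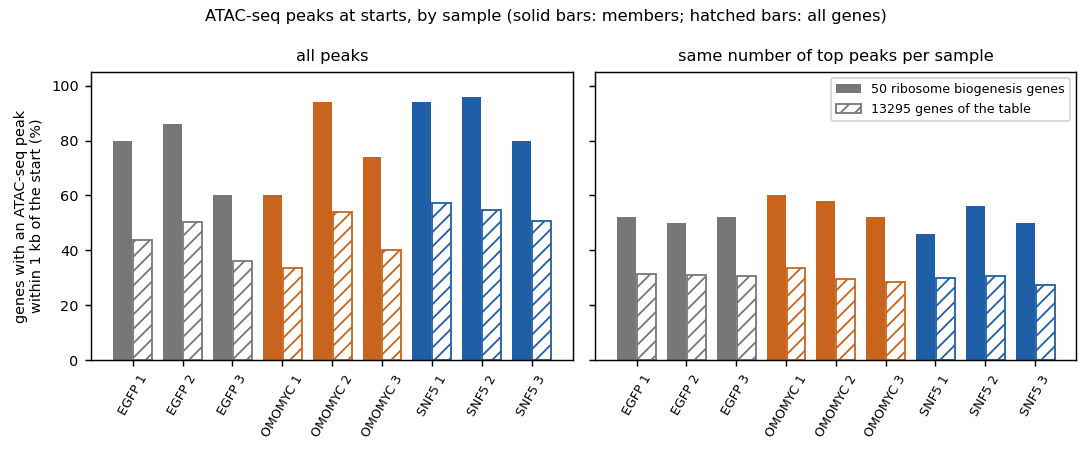
Share of genes with an ATAC-Seq peak within 1 kb of the start in each of the 9 samples, for 50 members (solid bars) and 13295 genes (hatched bars). The left panel uses all peaks and the right panel the same 7260 top peaks from each sample. At equal list length the members' bars lie between 23 and 30 of 50 genes in every sample, and the hatched bars between 27.4 and 33.4%.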

How the data were processed

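G401 cells expressing EGFP, OMOMYC or SNF5 were profiled by PRO-Seq and ATAC-Seq (n = 3) and MYC ChIP-Seq (n = 2). The authors deposited raw PRO-Seq read counts per transcript, made by trimming with cutadapt, alignment with Bowtie2 to hg19, removal of rRNA and poorly mapped reads, and counting with NRSA in a 50-base promoter-proximal window and in the gene body from 1 kb past the start; the deposited density (signal) is count over gene body length for nearly all transcripts. The deposited peak lists, called by MACS2 per sample (MYC in hg19, ATAC in hg38), give fold enrichment over background as a ratio and -log10 q-values. Here the transcript with most gene body reads stood for each gene. Counts were tested with edgeR 4.0.16 in R 4.3.3 (quasi-likelihood, all 9 samples, construct plus replicate number, relative log expression scaling from gene body counts, mean of at least 10 counts, Benjamini-Hochberg over all genes, 0.05). The pausing index was tested as the interaction of region and construct. Deviations of same-numbered samples correlated at 0.767 to 0.889 for gene body counts, 0.69 to 0.856 for promoter-proximal counts and 0.546 to 0.845 for the pausing index, so the numbers were taken as pairs. Replicates are biological per the paper. Nothing says whether the transduced cells were cloned. The tests were tested on simulated data. Per-sample depth stands in the report; the depth behind the peak lists was not analysed. Peaks were counted with a summit (MYC) or any base (ATAC) within 1 kb of a start. Alternatives were DESeq2 1.42.0, TMM, other scaling, no filter, fewer constructs, no replicate number and leaving out each number. Members and lists were chosen with earlier results of these data known. By rule, genes with values in every sample were the core snoRNP proteins, NCL, NPM1 and the PES1, BOP1 and WDR12 complex. To these came, for each measure and construct against EGFP, the 3 called members of lowest adjusted p in each direction. RRP9, RRP12, RCL1, UTP20 and WDR74 were outside this rule. They were shown because they passed between SNF5 and OMOMYC, a choice made after seeing the data. Sequences were ranked by EGFP replicate 1 enrichment.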

Additional observations from a re-analysis of the deposited data

How the results depend on the processing

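The replicate number as a block decided every call: without it, 0 members passed in gene body counts, promoter-proximal counts or the pausing index in any of the 3 comparisons. TMM scaling (not run for the pausing index) and no filter on low counts kept each count of gene body calls, and no filter each count of pausing calls, within 1.5 times, and no called value of a named member reversed under any alternative. In gene bodies, leaving out a replicate number gave 3 to 44 calls with SNF5 (35 in all), 0 to 48 with OMOMYC (20 in all) and 2 to 23 between them (5 in all), DESeq2 gave 32 with OMOMYC, 2 of them higher, and fitting only the constructs compared gave 3 between SNF5 and OMOMYC. In promoter-proximal counts, SNF5 against EGFP gave 4 calls with scaling from those counts (7.14%, against 9.26% of all genes). It gave 1 without a filter (1.79%, against 4.89% of all genes) and 0 to 3 on leaving out a number. On leaving out a number SNF5 against OMOMYC gave 0 to 1. For the pausing index, DESeq2 gave 0 calls in each comparison, fitting only the constructs compared gave 0 with SNF5, and leaving out a number gave 0 to 2 with SNF5, 0 to 11 with OMOMYC and 0 to 1 between them. Members with a MYC peak in both EGFP samples numbered 28 to 36 over the other windows, starts and q-values, and 55 and 35 when either replicate was left out, a choice made after seeing the data. Members with an ATAC peak in all 3 SNF5 samples numbered 40, and 19 with equal numbers of top peaks; leaving out a sample, also chosen after seeing the data, kept each construct's count within 1.5 times. The causes were not tested. The samples numbered 1 had 518900 to 672874 promoter-proximal reads, and the effect of this low depth on the pausing index was not tested.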
